A study of Mus musculus with 3 samples.

Results

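The genes described here are 59 genes of synaptic adhesion molecules, the membrane proteins that hold the presynaptic and the postsynaptic side of a synapse together. They were taken by symbol from the GENCODE M39 annotation of the mouse genome (GRCm39), and all 59 were found among its 21757 protein-coding genes. The measurement was hMeDIP-seq, in which an antibody against 5-hydroxymethylcytosine (5hmC) pulls modified DNA fragments down and the fragments are then sequenced, here on nanopore flow cells that also read 5hmC, 5-methylcytosine (5mC) and unmodified cytosine (C) directly at CpG sites. Peaks, which are stretches with more fragments than an untreated library of the same sample, were merged over replicates wherever they overlapped. Of 13339 merged regions on chromosomes 1 to 19, X and Y, 174 had their midpoint in the body of 1 of the 59 genes or within 1 kb upstream of its start, and no region was shared by 2 of these genes.

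All 3 libraries were made from cerebellum DNA of the C57Bl6Cr strain, female and 8 weeks of age, with no treatment, mutation or second group. The library names carry the same tissue number, and the sheared DNA was sonicated in 3 separate reactions, so the 3 replicates are taken here as repeat pulldowns of the DNA of 1 animal that do not measure differences between animals. Each pulldown used 1 µg of DNA in fragments of 362 bp on average. For replicate 1 the antibody was whole serum, while for the other 2 it had been purified to its IgG, so that antibody and replicate cannot be told apart for replicate 1. Whole cerebellum holds neurons, glia and vessel cells, and the assay measures DNA, so that transcripts of cell type markers were not measured and the cell type that carried a mark cannot be given.

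Synaptic adhesion molecules work as pairs across the cleft. Presynaptic neurexins and receptor phosphatases of the LAR type bind postsynaptic neuroligins, LRRTMs, SALMs and SLITRKs, teneurins bind latrophilins, and immunoglobulin-domain proteins such as the IgLONs, NCAMs and SynCAMs bind each other or themselves. 5hmC is made from 5mC by TET enzymes and is known to be abundant in neurons, where it lies mostly in the bodies of genes. In cerebellum, granule cells, which supply most of the neurons, form parallel fibre synapses on Purkinje cells, in which neurexins take part.

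Replicates 1, 2 and 3 yielded 497, 8546 and 5166 peaks over the genome, and 5, 108 and 69 merged regions of the synaptic adhesion genes rested on them. The CpG sites of these 174 regions received 553, 1037 and 933 calls. The median was 1.0 call at a covered site in all replicates, and no site had more than 3, 3 and 4. All calls are listed on the forward strand, and whether reverse-strand calls were combined with them or left out is not given in the sources used here. At this depth a share can be given for a gene or a group of regions but not for a single CpG.

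Of the 59 genes, 42 held at least 1 merged region and 17 held none. Among all protein-coding genes 20% (4356 of 21757) held a region, but the synaptic adhesion genes are long, with a median length of 297 kb against 19.2 kb. Each was therefore set beside the 100 protein-coding genes nearest to it in length, none of them from the list, and the number of regions expected was taken from their mean density. For the longest genes length was matched only loosely: the sets of Cntnap2, Ptprd and Nrxn3 ran from 732 to 2962 kb. Other protein-coding genes over 300 kb held 0.712 regions per 100 kb, against 1.16 in those of 50 to 300 kb. From the share of the genes of like length that held a region, 27.7 of the 59 genes would hold one. In number of regions the excess was small, with 174 observed and 159.0 expected, a ratio of 1.1, and without replicate 2 the number of regions was 74. The median percentile of the 59 genes among genes of like length was 67. In replicates 1, 2 and 3 the ratios were 0.911, 1.08 and 1.13, or 1.04 ± 0.114 (SD, n = 3), and did not differ from 1 beyond the spread between replicates (two-sided exact sign-flip permutation test on the log2 ratios, p = 0.75, where 0.25 is the smallest p that 3 replicates can give). Without Ntm, the gene with most regions, the ratio was 0.964, and it was 0.839 when genes were compared at like CpG number in place of like length.

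The genes differed by length class. Of the 19 genes under 50 kb, 13 held a region, where 2.66 would from genes of like length and 12.7% of all protein-coding genes of that size did. These 19 genes held 16 regions against 3.73 expected. Of the 11 genes of 50 to 300 kb, 10 held a region, against 5.42 from genes of like length and 40.4% of all genes of that size, and their 45 regions stood against 21.7 expected. Of the 29 genes of 300 kb or more, 19 held a region, or 65.5%, beside 64.5% of all genes of that size, and their 113 regions stood against 133.0 expected. The ratios of observed to expected regions in the 3 length classes were 4.29, 2.07 and 0.848, and at like CpG number 3.01, 1.61 and 0.649. With each replicate left out in turn they stayed between 4.06 and 4.79, 1.83 and 2.28, and 0.81 and 0.904.

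**Figure D1:**
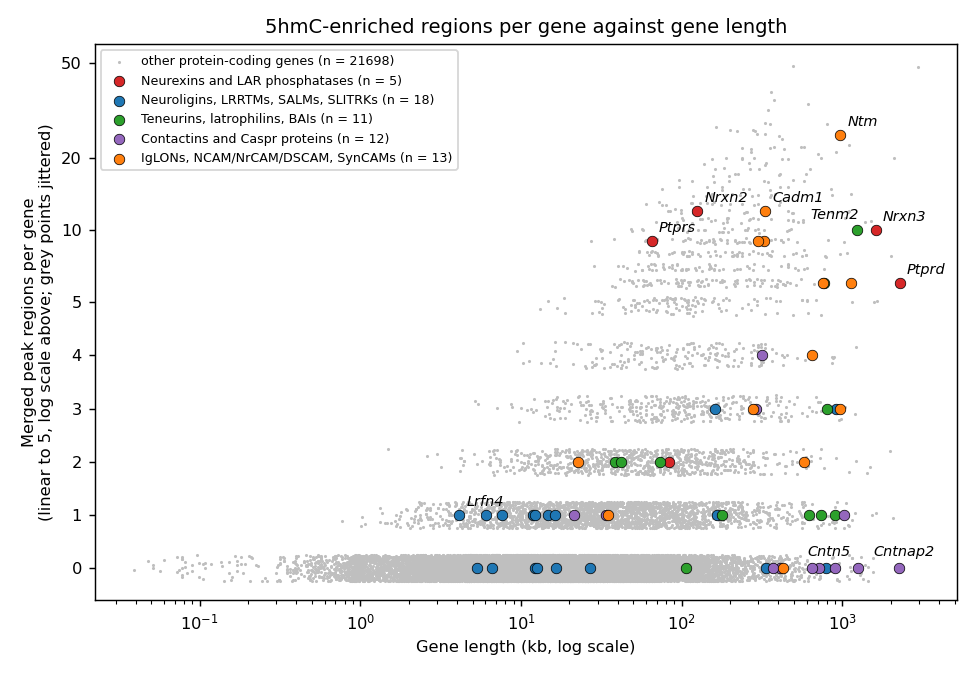
Number of merged peak regions (y axis, linear up to 5 and logarithmic above) against gene length in kb (x axis, log scale) for the 59 synaptic adhesion genes, coloured by family group, and all other protein-coding genes (grey, jittered vertically). Of the 19 members under 50 kb, 13 lie above 0 and 6 at 0 with most genes of their length, while Cntnap2 and Cntn5 lie at 0 beside long genes with many regions.

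The 12 genes with 6 or more regions (Ntm, Nrxn2, Cadm1, Nrxn3, Tenm2, Ptprs, Ncam1, Dscaml1, Opcml, Negr1, Ptprd and Adgrb3) held 120 of the 174 regions, or 69.0%. A further 14 genes held 2 to 4 regions and 16 held 1. Chromosome 9 carried 61 of the 174 regions in 6 of the genes (Ntm, Cadm1, Ncam1, Dscaml1, Opcml and the empty Cntn5). Other protein-coding genes of chromosome 9 held 1.03 regions per 100 kb, near the 1.01 of all other protein-coding genes.

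Only 8 of the 174 regions held a peak in 2 replicates and none in all 3, a share of 4.6% beside 6.00% of all merged regions with a peak in 2 or more replicates. Each of the 8 had its peaks in replicates 2 and 3, and they lay in Nrxn2, Nlgn2, Cadm3, Cntnap4, Dscaml1, Ncam1, Ntm and Tenm4. Ranked by the higher of the 2 replicate values, fold enrichment over the untreated library was highest in Nrxn2 (4.79 in replicate 2 and 6.78 in replicate 3). Next came Dscaml1 (3.83 and 5.81), Cadm3 (5.29 and 4.55), Ncam1 (4.79 and 3.87) and Nlgn2 (4.62 and 3.85). In replicate 2 alone Cadm3 was highest. Cntnap4 (3.83 and 3.87), Ntm (3.7 and 3.87) and Tenm4 (2.87 and 2.9) were lower. The regions of Nrxn2, Nlgn2 and Cadm3 lay in coding exons and the other 5 in introns.

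The reference sequence of 200 bases around the strongest summit is printed for 4 of these 8 regions, 1 gene each. Each of the 8 held 5hmC calls over the replicates, but not in each replicate with a peak. The Ntm region had 2 of 17 calls 5hmC and no call in replicate 3. In the Nlgn2 region none of the 7 calls of replicate 3 was 5hmC. Of its 19 5hmC calls, 15 came from replicate 1, which had no peak there. Capitals mark the CpG sites at which at least 1 read of any replicate was called 5hmC. All are on the forward strand of GRCm39, read from its sequence. The Nrxn2 window (chr19:6478294-6478493) lies in the coding exon between the first and the second intron, the Cntnap4 window (chr8:113378052-113378251) in the second intron, the Nlgn2 window (chr11:69716691-69716890) in a coding exon of a gene on the reverse strand, and the Dscaml1 window (chr9:45505401-45505600) in the third intron.
Nrxn2: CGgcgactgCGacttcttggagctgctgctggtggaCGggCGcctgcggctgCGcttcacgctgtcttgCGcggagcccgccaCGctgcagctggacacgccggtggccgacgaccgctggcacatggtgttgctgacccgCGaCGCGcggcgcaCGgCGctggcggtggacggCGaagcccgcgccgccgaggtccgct
Cntnap4: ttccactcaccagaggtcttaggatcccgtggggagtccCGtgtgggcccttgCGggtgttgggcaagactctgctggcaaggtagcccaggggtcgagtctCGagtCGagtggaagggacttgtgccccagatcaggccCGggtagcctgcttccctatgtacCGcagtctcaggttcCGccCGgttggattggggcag
Nlgn2: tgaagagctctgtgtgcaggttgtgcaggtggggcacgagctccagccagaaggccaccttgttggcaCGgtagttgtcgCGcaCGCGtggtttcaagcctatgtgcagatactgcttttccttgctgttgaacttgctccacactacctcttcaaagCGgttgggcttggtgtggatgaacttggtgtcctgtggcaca
Dscaml1: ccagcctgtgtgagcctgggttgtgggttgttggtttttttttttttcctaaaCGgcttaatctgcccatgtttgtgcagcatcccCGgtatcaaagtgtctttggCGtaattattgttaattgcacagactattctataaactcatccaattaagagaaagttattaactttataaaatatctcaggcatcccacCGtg
The Nrxn2 window is 74.5% G and C and holds 33 CpG sites, of which 13 carried a 5hmC call, with 16 of 97 calls being 5hmC. In the Cntnap4 window 8 of 10 sites and 16 of 34 calls were 5hmC, in the Nlgn2 window 5 of 7 sites and 9 of 17 calls, and in the Dscaml1 window 4 of 4 sites and 6 of 23 calls. The CpG-dense Nrxn2 window thus held the most CpG sites and the smallest share of sites with a 5hmC call among these 4.

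The presynaptic side stood high in regions, mostly through Nrxn2 and Ptprs. Its 5 genes, the neurexins Nrxn2 and Nrxn3 and the LAR-type phosphatases Ptprs, Ptprd and Ptprf, all held regions, 39 in all against 18.5 expected (28.1 at like CpG number). Nrxn2 held 12 of the 39 and Ptprs 9. Of the 100 genes of like length, 41 held a region for Nrxn2, 35 for Ptprs, 26 for Ptprf and 68 each for Nrxn3 and Ptprd. Neurexins are the presynaptic receptors that neuroligins and LRRTMs bind, and the LAR-type phosphatases are receptor tyrosine phosphatases with the same kind of partners, SLITRKs and SALMs among them.

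Nrxn2 (chr19:6468761-6594199, forward strand, 125 kb) held 0, 9 and 4 regions with a peak in replicates 1, 2 and 3, 12 in all against 1.23 expected. Its 9.49 regions per 100 kb put it at the 100th percentile of the 100 genes of like length, and at the 93rd percentile at like CpG number, where 3.26 regions were expected. Of the 12 regions 8 lay in introns, 3 in coding exons and 1 in a non-coding exon. The last intron region, with 54 calls, also lies within the protein-coding gene Slc22a12. Without replicate 2 it kept 4 regions, and without replicate 3 it kept 9.

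Ptprs (chr17:56718507-56783537, reverse strand, 65.0 kb) held 1, 5 and 3 regions in replicates 1, 2 and 3, 9 in all against 1.0 expected. At 13.6 regions per 100 kb it was the densest of the genes with 3 or more regions and stood at the 100th percentile. The regions ran from the 1 kb upstream of the start to 62.5 kb into the gene, 4 of them in introns, 2 in coding exons, 2 in non-coding exons and 1 upstream. This upstream region was the only one of the 174 outside a gene body.

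Nrxn3 and Ptprd are far longer and had fewer regions for their size. Nrxn3 (1612 kb) held 0, 7 and 3 regions in the 3 replicates, 10 in all against 6.5 expected at like length and 9.14 at like CpG number. None of the 10 lay in the first 976 kb of the gene: 7 lay in a single intron, the fourteenth, and the last in a coding exon at 1609 kb. Ptprd, at 2271 kb the longest gene of the list, held 1, 3 and 2 regions, 6 in all against 9.16 expected at like length and 11.7 at like CpG number. Ptprf (83.6 kb) held 2 regions, both in replicate 2, against 0.59 expected at like length and 2.34 at like CpG number.

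The 18 postsynaptic partners were mixed, with 14 regions in 10 genes against 18.5 expected. Most are short genes whose coding sequence fills 1 or a few exons. The median length of the 18 genes was 14.6 kb, and 12.7% of all genes under 50 kb held a region. Among the neuroligins, Nlgn2, which organises inhibitory synapses, held 1 region with peaks in replicates 2 and 3 (0.24 expected for its 14.7 kb), the 906 kb Nlgn1, known from excitatory synapses, held 3 regions, all in replicate 2, against 3.86, and the X-linked Nlgn3 held none against 0.33. Of the SALMs, leucine-rich-repeat proteins that bind LAR-type phosphatases, Lrfn1, Lrfn2, Lrfn3 and Lrfn4 held 1 region each. Lrfn3 (7.65 kb, 0.0301 expected) and Lrfn4 (4.14 kb, 0.09 expected) are among the shortest genes of the list, and 3 of these 4 regions, those of Lrfn1, Lrfn3 and Lrfn4, lay in a coding exon. Lrfn5 (336 kb) held none against 4.44. The Lrfn4 region also lies within Pcx, and the 3 regions of Lrrtm3 lie within Ctnna3, genes that overlap them, so these regions are not theirs alone. Of the LRRTMs, postsynaptic ligands of neurexins, Lrrtm3 held 3 regions and Lrrtm2 1, the latter also within Ctnna1, while Lrrtm1 and the 791 kb Lrrtm4 held none. Of the SLITRKs, Slitrk2 and Slitrk5 held 1 region each, both in a coding exon, and Slitrk1, Slitrk3, Slitrk4 and Slitrk6 held none, as genes of 5.36 to 12.6 kb for which at most 0.18 regions were expected.

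The teneurins, large transmembrane proteins, and the latrophilins and BAIs, adhesion G-protein-coupled receptors, held 29 regions in 10 of 11 genes against 31.0 expected at like length and 53.5 at like CpG number, ratios of 0.935 and 0.542. The median length of the 11 genes was 619 kb, beside a share of 64.5% with a region among all genes of 300 kb or more. Tenm2 (1229 kb) held the most among the teneurins, with 0, 7 and 3 regions in the 3 replicates. Its 10 regions stood against 4.7 expected at like length but 10.6 at like CpG number, and 9 lay beyond 671 kb from the start or at it. Tenm1, Tenm3 and Tenm4 held 1 region each, against 3.83, 3.91 and 4.53. The latrophilins Adgrl1, Adgrl2 and Adgrl3 held 2, 1 and 3 regions against 0.4, 2.14 and 4.32. Adgrl4, a receptor of the same family known from vessel endothelium and not from synapses, held none against 1.34. The BAIs Adgrb1, Adgrb2 and Adgrb3 held 2, 2 and 6 regions against 0.768, 0.34 and 4.75 at like length and 1.87, 0.888 and 6.33 at like CpG number, so that their ratio was 1.71 by length and 1.1 by CpG number. Adgrb3 binds complement-like C1q proteins and is known from the climbing fibre synapse on Purkinje cells. Its regions came from replicate 2 (4) and replicate 3 (2).

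The axonal contactins and Caspr proteins stood at the other end. Contactins are membrane-anchored immunoglobulin proteins and the Caspr proteins are their neurexin-like partners along axons and at nodes of Ranvier. Together the 12 genes held 10 regions in 5 genes, against 46.1 expected at like length and 48.9 at like CpG number, ratios of 0.217 and 0.204. Their median length was 527 kb, where 64.5% of all genes of 300 kb or more held a region. The replicates gave 0, 5 and 6 regions, and with each replicate left out in turn the ratio at like length stayed between 0.164 and 0.321.

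Cntnap2, the gene of Caspr2 and at 2245 kb the second longest of the list, held no peak in any replicate, where 9.06 regions were expected from genes of like length and 10.2 from genes of like CpG number. The exact 95% Poisson interval of a count of 0 reaches 3.69 regions. The 100 genes taken as of like length ran from 732 to 2962 kb, so that 9.06 is a mean density scaled to the length of Cntnap2. Of these 100 genes, 68 held a region, so that a count of 0 is shared with the rest of them and stands at the 16th percentile. Cntn5 (1246 kb, 4.88 expected), Cntnap5b (718 kb, 4.86), Cntnap5c (642 kb, 4.09), Cntnap5a (903 kb, 3.84), Cntn6 (371 kb, 3.8) and Cntn3 (410 kb, 3.66) also held none, and Cntn4 (1023 kb) held 1 against 4.29. The genes of this group that held regions were Cntnap4 (1 region in replicate 2 and 4 in replicate 3, 4 in all against 3.47), Cntn1 (3 against 3.63) and the short Cntn2 (0.211 expected) and Cntnap1 (0.28 expected) with 1 each. Cntn1 and Cntn2 are contactins of axons, the latter known as TAG-1, and Cntnap1 is the Caspr protein of the junctions beside nodes of Ranvier.

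Together with Lrrtm4, Lrfn5 and Ncam2, these 7 empty contactin and Caspr genes made up the 10 genes of 300 kb or more without a region. They span 8090 kb, over which 47.5 regions were expected from genes of like length and 45.7 from genes of like CpG number. CpG content moved with this: the 10 empty long genes held 3.95 to 5.61 CpG per kb (median 4.65), the 8 long genes with 1 to 3 regions a median of 6.11, and the 11 with 4 or more a median of 6.62, while Nrxn2 held 18.6 and Ptprs 23.7. The ranges overlapped, since long genes with 4 or more regions went down to 5.09 CpG per kb. The part of CpG content in these counts was not tested beyond the comparison at like CpG number.

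The immunoglobulin superfamily held the most regions, 82 in 12 of 13 genes against 44.6 expected at like length and 56.8 at like CpG number. The median length of the 13 genes was 429 kb, and of all protein-coding genes of 300 kb or more 64.5% held a region. The IgLONs, lipid-anchored proteins that pair with each other on neurons, led with 41 regions against 17.3 at like length and 26.2 at like CpG number, 25 of them in Ntm, and the SynCAMs, which bridge the cleft by binding each other, held 18 against 8.5. NCAM, NrCAM and the DSCAMs held 23 against 18.8, a ratio of 1.22 that was 0.933 without replicate 2 and 1.5 without replicate 3.

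Ntm, the IgLON neurotrimin (chr9:28906045-29874437, reverse strand, 968 kb), held 1, 13 and 12 regions in the 3 replicates, 25 in all against 4.09 expected. The exact Poisson interval of this count is 16.2 to 36.9 and covers counting error only. All 25 lay in introns, between 299 and 965 kb from the start of the longest transcript, and none in the first 299 kb. The regions from 299 to 549 kb lie upstream of the first intron of the canonical transcript, which holds those from 590 to 771 kb. Ntm stood at the 97th percentile of genes of like length and at the 93rd percentile at like CpG number, and it kept 24, 13 and 14 regions without replicates 1, 2 and 3. Its neighbour on the same chromosome, the IgLON Opcml (1135 kb), held 6 regions, all from replicate 2, against 4.29 at like length and 7.59 at like CpG number, and the IgLONs Negr1 and Lsamp held 6 and 4 against 4.7 and 4.2. The 4 regions of Lsamp also lie within an overlapping protein-coding gene model.

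Cadm1, the gene of SynCAM1 (chr9:47441471-47773576, forward strand, 332 kb), held 0, 5 and 7 regions in the 3 replicates, 12 in all against 3.86. All 12 lay in the first intron, from 10.2 to 226.0 kb, and 8 of them also in long non-coding RNA genes annotated there. Cadm2, Cadm3 and Cadm4 held 3, 1 and 2 regions against 4.08, 0.24 and 0.32. Ncam1 (297 kb), the neural cell adhesion molecule, held 0, 8 and 2 regions, 9 in all against 3.33, all in introns and 8 of them in the first. Dscaml1 (327 kb), a homophilic adhesion molecule, held 1, 6 and 3 regions, 9 in all against 3.52, all in introns and 8 of them in the third. Nrcam held 3 regions against 3.88 and Dscam 2 against 3.63, and the paralog Ncam2 held none against 4.45.

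**Figure D2:**
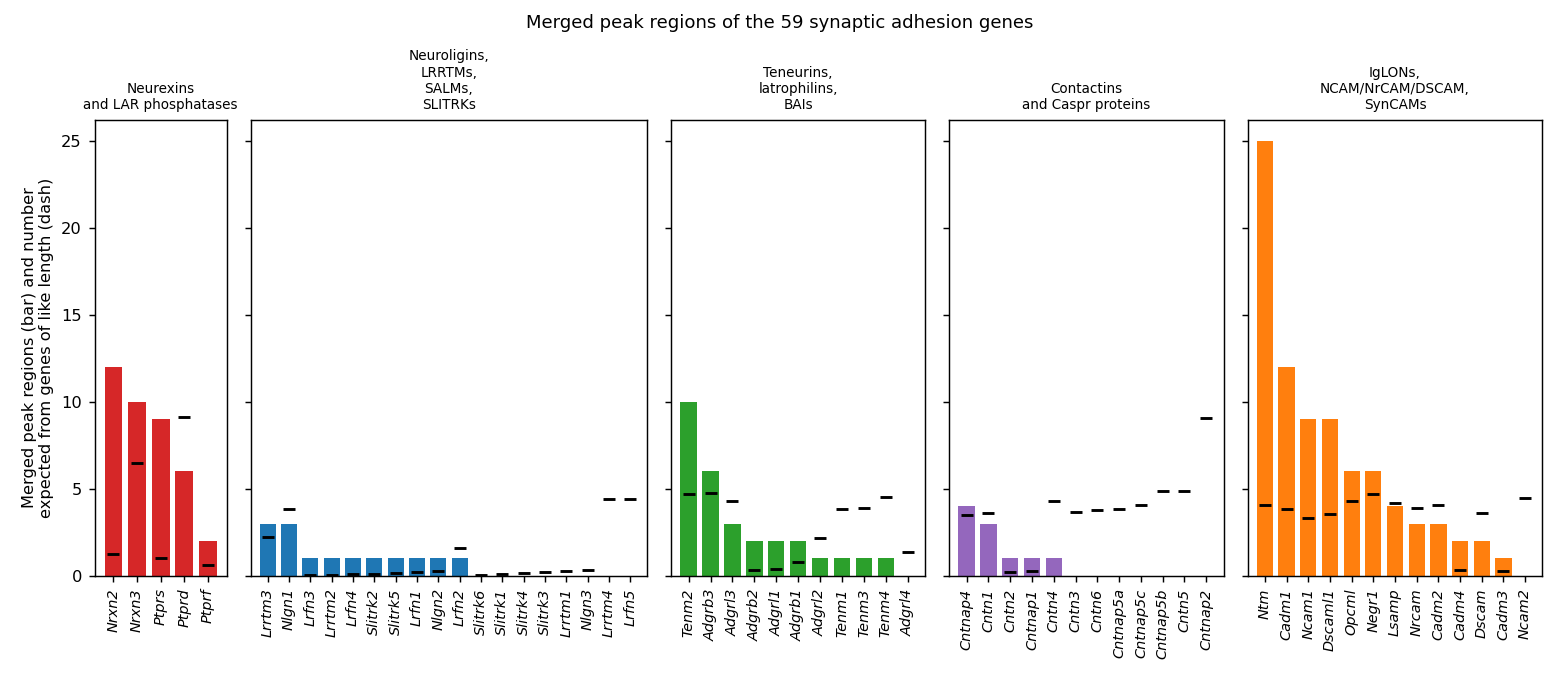
Merged peak regions of each of the 59 genes (bars) and the number expected from the 100 protein-coding genes nearest in length (dashes), in 5 panels by family group. Ntm with 25 regions against 4.09 and Cntnap2 with 0 against 9.06 are the widest gaps above and below. The 100 genes set beside Cntnap2 ran from 732 to 2962 kb.

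The sex chromosome stood apart in all genes. Other protein-coding genes of the X chromosome held 0.0477 regions per 100 kb against 1.05 on autosomes, and 2.04% of them held a region against 20.9%. Of the 4 X-linked synaptic adhesion genes, Tenm1 and Slitrk2 held 1 region each and Nlgn3 and Slitrk4 none, so that low counts of these genes lie on a chromosome with few regions.

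Along the genes, regions of the list lay far from the start. Their median distance from the start was 169.0 kb, against 41.1 kb for the 10555 regions of other protein-coding genes, and 6 of 174 (3.45%) lay within 5 kb of it against 13.9%. Introns held 147 of the 174 regions (84.5%, against 80.7% in other genes), coding exons 20 (11.5% against 9.37%), non-coding exons 6 (3.45% against 7.8%) and the 1 kb upstream 1 (0.575% against 2.18%). The shares of regions in the first intron, among those whose intron could be numbered on the canonical transcript, were 39.7% and 40.6%. Since genes of the list are longer, the distances describe that length as well. The regions themselves were like those of other genes in width (median 304.0 bp in both) and in highest fold enrichment (median 3.83 in both), with fewer CpG sites (median 5.0 against 7.0).

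**Figure D3:**
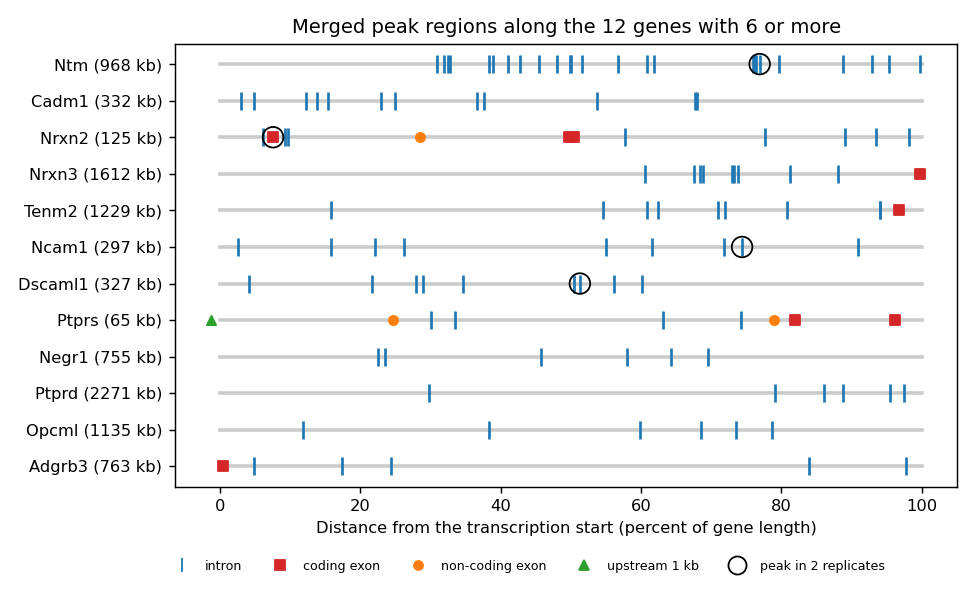
Position of the merged peak regions in the 12 genes with 6 or more, as distance from the transcription start in percent of gene length, with the part of the gene marked by symbol and peaks found in 2 replicates circled. Regions of Ntm and Nrxn3 leave the first 30% of the gene empty, those of Cadm1 lie in its first 70%, and those of Ptprs spread over the gene.

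The direct base calls gave the state of the CpG sites in these regions. In the 174 regions the 5hmC share of calls in the successive replicates was 31.8, 32.8 and 31.6%, with exact 95% binomial intervals of 28.0 to 35.9, 29.9 to 35.7 and 28.6 to 34.7 that cover counting error only. The mean was 32.1% ± 0.643 (SD, n = 3) against 31.5% ± 0.907 in regions of other protein-coding genes. In replicate 1, 488 of the list's 553 calls lay outside that replicate's own peaks, against 110 of 1037 in replicate 2 and 183 of 933 in replicate 3. Inside own peaks the list's 5hmC shares were 16.9, 33.0 and 29.3%. The differences within replicates were 1.32, 0.446 and -0.03 percentage points, so that the sets overlapped (two-sided exact sign-flip permutation test, p = 0.5, smallest possible 0.25). Split by the strand of the gene, with Nrxn2 included, the shares went opposite ways. Genes of the list on the forward strand, Nrxn2 among them, had 29.2, 27.9 and 27.7% against 29.6, 31.8 and 29.8% in other forward-strand genes, lower in 3 of 3 replicates. Genes of the list on the reverse strand had 34.9, 39.5 and 37.7% against 31.0, 32.7 and 33.6% in other reverse-strand genes, higher in 3 of 3. The lower forward-strand shares rested on Nrxn2, which held 170 of 295, 244 of 596 and 271 of 570 forward-strand calls of the list in replicates 1, 2 and 3. Of the 86, 166 and 158 5hmC calls among them, 34, 52 and 54 lay in Nrxn2. With these calls taken out, the forward-strand share lay above that of other forward-strand genes in each replicate, though only slightly in replicate 2. The part of the forward-strand listing of calls in the split by strand was not tested. 5mC made up 37.1% ± 3.01 against 40.5% ± 0.569, lower in 3 of 3 replicates (p = 0.25 by the same exact test, the smallest possible). The 5mC differences within replicates were -6.92, -0.154 and -3.19 points. C made up 30.8% ± 3.46 against 28.0% ± 0.764.

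This likeness of the pooled shares rested on Nrxn2, which supplied 30.7, 23.5 and 29.0% of the list's calls in the 3 replicates. Without Nrxn2, 5hmC made up 37.1, 36.3 and 36.4% of calls in the 3 replicates, higher than in other protein-coding genes in 3 of 3 replicates, by 5.1 percentage points ± 1.33 (SD, n = 3). Leaving Nrxn2 out was chosen after its values were seen, and the exact sign-flip permutation test gave p = 0.25, the smallest possible.

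In Nrxn2 the 5hmC shares of the 3 replicates were 20% (170 calls), 21.3% (244 calls) and 19.9% (271 calls), the lowest mean of replicates 2 and 3 among genes with at least 20 calls in both. Its coding-exon region of 139 CpG sites accounted for 397 of the 685 calls over the replicates. There 5hmC made up 11.8, 8.55 and 18.5% of calls in replicates 1, 2 and 3 and C 53.9, 62.4 and 57.3%. In the other 11 regions of Nrxn2, 5hmC made up 32.4, 33.1 and 22.6% of calls. Over the replicates 5hmC was 13.9% of calls in the exon region (10.6 to 17.6) and 29.5% in the other 11 (24.3 to 35.1).

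Over the pooled calls of the list, intron and coding-exon regions had different shares, although not in each gene: in Nrcam 5 of 12 calls in the coding-exon region were 5hmC and 2 of 9 in its introns. In intron regions of the synaptic adhesion genes 5hmC made up 42.1, 38.9 and 41.5% of calls in the 3 replicates, against 32.7, 34.3 and 32.8% in intron regions of other protein-coding genes. The groups did not overlap, and the difference was 7.59 percentage points ± 2.58 (SD, n = 3), higher in 3 of 3 replicates (exact sign-flip permutation test, p = 0.25, the smallest possible). This split by gene context was made after values had been seen. C was lower in these intron regions, at 24.1, 19.7 and 20.4% against 26.8, 26.2 and 25.8%. Among calls inside the replicate's own peaks, 5hmC in member introns was 38.6% against 34.4% in replicate 2 and 40.3% against 31.8% in replicate 3, but 17.6% of only 17 calls against 29.4% in replicate 1, so that the mean difference was 0.296 points in that setting. Without Ntm, Nrxn2 or Dscaml1 the intron difference was 8.1, 7.81 and 7.33 points.

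In coding-exon regions the order was the reverse. 5hmC made up 20.4, 17.5 and 16.7% of calls in the synaptic adhesion genes against 25.7, 27.2 and 28.2% in other genes, a difference of -8.82 percentage points ± 3.24 (SD, n = 3; exact permutation p = 0.25, the smallest possible), and C 42.7, 43.8 and 45.2% against 32.5, 31.8 and 31.0%. Without Nrxn2 the 5hmC shares were 30.6, 23.9 and 15.2%, which overlapped those of other genes. CpG density moved with these levels: in regions under 20 CpG per kb 5hmC made up 41.2, 42.1 and 44.5% of calls in the synaptic adhesion genes and 35.8, 37.2 and 37.6% in other genes, and in denser regions 28.9, 26.5 and 23.4% against 28.8, 29.8 and 29.1%. Its part in the difference between intron and exon was not tested.

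**Figure D4:**
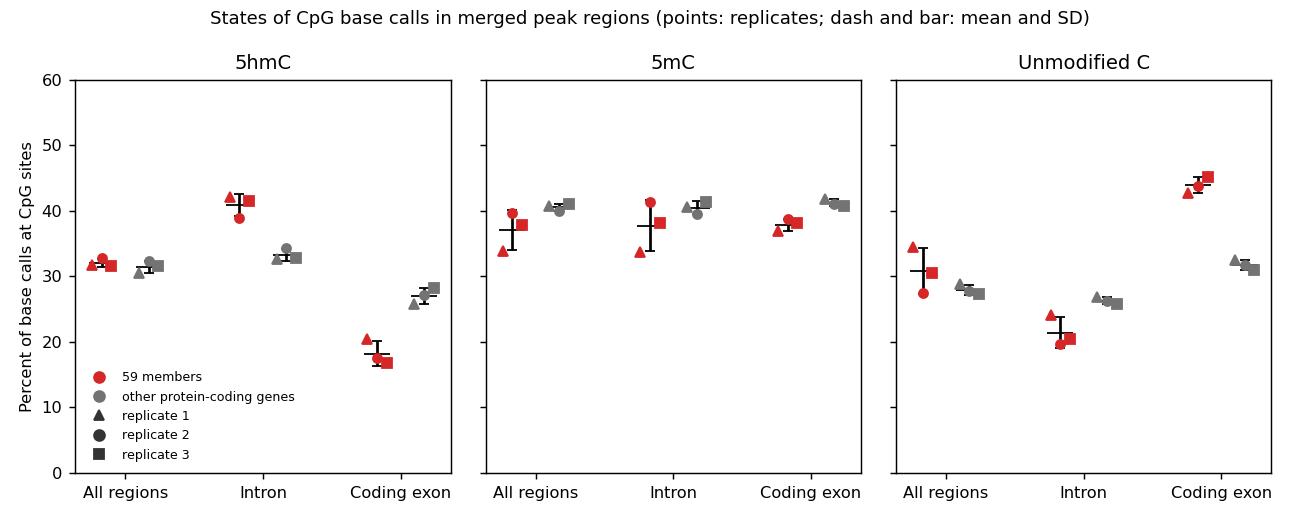
Percent of CpG base calls that were 5hmC, 5mC and C (panels) in all regions, intron regions and coding-exon regions, for the 59 genes (red) and other protein-coding genes (grey); points are the 3 replicates, dashes and bars their mean and SD. In introns the 5hmC share of the 59 genes, 38.9 to 42.1%, lies above the 32.7 to 34.3% of other genes, and in coding exons it lies below.

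Among single genes, 9 had at least 20 calls in both replicates 2 and 3. The highest means of these replicates were those of Adgrb3 (29.4 and 70.0%, mean 49.7%), Tenm2 (52.4 and 41.5%, mean 47.0%), Ntm (43.5 and 43.3%, mean 43.4%) and Ncam1 (24.6 and 60%, mean 42.3%), and the lowest after Nrxn2 were those of Cadm1 (23.1 and 44.4%, mean 33.8%), Cntnap4 (27.3 and 41.4%, mean 34.4%) and Ptprs (42.0 and 34.9%, mean 38.5%). Dscaml1 lay between at 44.3 and 33.8%. In replicate 1, 5hmC made up 33.9% of calls in Ntm, 51.7% in Dscaml1, 45.5% in Ncam1 and 23.0% in Ptprs. The intervals of most of these genes overlapped, as did those of the 2 replicates of Ncam1, whose upper bound of 37.8% in replicate 2 lay above the lower bound of 36.1% in replicate 3. In replicates 2 and 3 the upper bounds of Nrxn2, 27.0 and 25.2%, lay below the lower bounds of Ntm (32.8 and 32.9%) and Tenm2 (36.4 and 26.3%) in the same replicate. In replicate 1 the intervals of Nrxn2 (14.3 to 26.8%) and Ntm (22.3 to 47.0%) overlapped. With the calls of the 3 replicates summed, the interval of Nrxn2 was 17.5 to 23.7% and lay below those of the other 8 genes, whose lower bounds ran from 25.7% in Cntnap4 to 35.9% in Tenm2. This separation rested on 1 coding-exon region, which held 397 of the 685 calls of Nrxn2. In its other 11 regions the interval was 24.3 to 35.1% and overlapped those of the other 8 genes except Tenm2. The order among the other 8 genes is not set by these intervals.

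**Figure D5:**
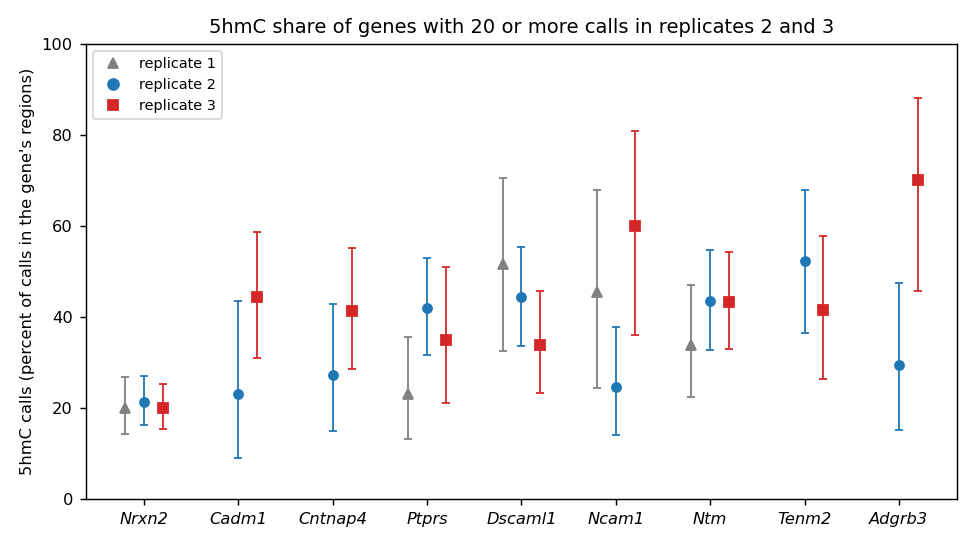
Percent of calls that were 5hmC in the regions of the 9 genes with at least 20 calls in replicates 2 and 3, per replicate, with exact 95% binomial intervals; replicate 1 is shown where it had 20 calls. Nrxn2 lies near 20% in all 3 replicates, the others between 23.0 and 70.0% with wide intervals.

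Over single regions the levels ranged widely. Of the 70 regions with at least 10 calls over the replicates, the median 5hmC share was 35.7% (quartiles 20 and 44.3), against 33.3% (21.4 and 44.4) in 4997 regions of other genes, and 12 (17.1%) lay above 50% against 14.1%. The highest was an intron region of Ntm (chr9:29433166-29433689) with 9 of 12 calls 5hmC, followed by a non-coding exon region of Ptprs with 8 of 11. An intron region of Nlgn1 (chr3:25712056-25712579) had 23 of 35 calls 5hmC. At the other end 3 regions (4.29%, against 2.4% in other genes) had no 5hmC call. They were a coding-exon region of Ptprf (0 of 13 calls), an intron region of Ncam1 (0 of 14) and the coding-exon region of Cntnap1 (chr11:101077256-101077557). In the Cntnap1 region all 31 calls of replicates 2 and 3 were C, 16 calls at 16 sites and 15 calls at 15 sites. The exact interval for 5hmC reaches 11.2%, but it takes these neighbouring calls as independent and so sets no firm bound. These regions were picked after their values were seen.

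Other lists of adhesion and synapse genes gave the setting. Of 27 partners of synaptic adhesion proteins 15 held a region, 50 regions in all against 57.6 expected, led by Nfasc (10 regions, a neurofascin of axon initial segments and nodes), Flrt1 (6, a latrophilin ligand) and Mdga1 (6, which binds neuroligins). Of 16 synaptic scaffold genes 11 held a region, 47 against 43.9, led by the Mint adaptors Apba2 (12) and Apba1 (11) and by Lin7a (6). Of 28 adhesion genes of non-neural cells 3 held a region, Itga2b, Itgb4 and Ocln with 1 each, against 10.7 expected. The ratios of observed to expected were 0.867, 1.07 and 0.281 beside 1.1 for the 59 genes. The lists differ in length, with medians of 143.0, 210.0 and 32.5 kb, and among all protein-coding genes 12.7% of those under 50 kb, 40.4% of those of 50 to 300 kb and 64.5% of longer ones held a region, beside 55.6, 68.8 and 10.7% in these lists.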

How the data were processed

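The hMeDIP-seq libraries were base-called with Dorado and aligned to GRCm39 with minimap2 by the authors, who called peaks in each replicate with MACS2 against untreated DNA and state that blacklisted regions were removed. The deposited peak lists give fold enrichment over the untreated library, −log10 p-values and q-values and a display score. The deposited modkit tables, limited by the authors to peaks and to CpG sites that are not soft-masked, give counts of 5hmC, 5mC and C calls per CpG site and the percent modified, which was recomputed from the counts. All 140428 sites are CpG in GRCm39.

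Peaks of the replicates that overlapped by 1 bp or more were merged (3 peaks outside chromosomes 1 to 19, X and Y were not used), and a region was given to a gene by its midpoint. Expected numbers came from the density of the 100 protein-coding genes nearest in length, or in CpG number. Shares are sums of calls within a replicate, with exact 95% binomial intervals for counting error only, since calls along a read are not independent. Genes are not replicates, so tests are exact sign-flip permutation tests over 3 replicates. Genes were named by fixed rules: peaks in 2 replicates, the most or fewest regions, the highest or lowest 5hmC shares, no region, Adgrl4, and the leading 3 of each comparison list. Genes outside these rules were picked with their values in view. The members and lists were chosen with earlier results of these data known. Python 3.11.15, pandas 2.3.3, scipy 1.17.1 and pysam 0.24.0 were used, and the counting was tested on simulated data.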

Additional observations from a re-analysis of the deposited data

How the results depend on the processing

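With peaks of at least 4-fold enrichment alone, 22 genes held 43 regions, 2 of them with peaks in 2 replicates, the median percentile among genes of like length was 47.5 (67 with all peaks) and the ratio of observed to expected regions 1.56. The ratio fell below 1 with the 200 genes nearest in length (0.972), at like CpG number (0.839, median percentile 59) and without Ntm (0.964). With each replicate left out in turn, 31 to 41 genes held 74 to 169 regions, 0 to 8 of them with peaks in 2 replicates, with median percentiles of 56.0 to 68.0 and ratios of 1.08 to 1.13. The 31 genes and 74 regions are those without replicate 2, the replicate with most peaks, and no region with peaks in 2 replicates was left without replicate 2 or without replicate 3.

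The 5hmC and C shares were 24.1 and 36.6% at sites with at least 3 calls, 26.4 and 34.5% in the replicate's own peaks, and 36.6 and 25.9% without Nrxn2. The 5hmC difference from other genes was -3.01 points at sites with at least 3 calls, -4.19 in own peaks and -0.183 without regions in which a CpG had 20 or more calls. The own-peak value rests on the 65 calls of replicate 1 (16.9% against 28.5%), while replicate 2 gave 33.0% against 32.5% and replicate 3 29.3% against 30.9%. The intron difference was above 0 in the 10 alternatives run, from 0.296 (own peaks) to 9.15 points. With each replicate left out, the shares of 5hmC, 5mC and C were 31.7 to 32.3, 35.8 to 38.8 and 29.0 to 32.5%, the difference 0.208 to 0.884 and the intron difference 6.65 to 9.06 points. The cause of these shifts was not tested. Leaving out Ntm, Nrxn2 or Dscaml1, and every alternative for the intron regions, was chosen after seeing the data. A minimum of 5 calls left 0 sites and was not run. The 59 genes and other genes were compared within each replicate, and with 1 group there was no further block to fit. The 3 replicates, with a median of 1.0 call per site, limit every share.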
